A study of Mus musculus with 8 samples.

Results

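Interferon-stimulated genes are the genes that cells switch on after interferon reaches its receptors, and 38 of them were followed across 8 RNA-seq libraries of mouse small intestinal crypts. They were taken as the rows of the deposited table whose gene name equals 1 of 38 listed symbols, and all 38 were found, each once, among 55880 genes. All 38 passed the expression filter, as did 14897 genes in all. The libraries came from C57BL/6N mice, per the labels. There were 4 libraries labelled knockout (genotype miR-29ab1-/-, named for the microRNA genes Mir29a and Mir29b-1) and 4 labelled WT, and the series title places both groups before irradiation. KO1 to KO4 and WT1 to WT4 stand for the replicates of the 2 groups as labelled. No source used here gives the age, sex or litter of the mice, any pooling, or the extent of the deletion. Nothing says that the libraries came from separate mice, so the p-values measure only the spread between these libraries, which may be technical.

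Type I and type III interferons act through the receptors Ifnar and Ifnlr and the kinases Jak1 and Tyk2, and activate a complex with Stat2 and Irf9 that binds the interferon-stimulated response element in promoters. Type II interferon, Ifng, acts through its own receptor and the gamma-activated site of promoters, and drives the guanylate-binding proteins and immunity-related GTPases most strongly. In the intestine, epithelial cells are known to respond chiefly to type III interferon, and gut microbes keep a low level of these genes on.

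Library totals ran from 13879472 to 17368666 counts. Mir29a had 0 counts in every library, while Mir29b-1 had 2, 5, 7 and 3 counts in KO1 to KO4, against 0 in each of WT1 to WT4. Reads of a hairpin named in the knockout genotype go against that label at face value, so the groups are named as labelled. The span of Gm27019 (chromosome 6, 31063092 to 31063495) overlaps that of Mir29b-1 (31063023 to 31063093) only at its edge, on the same strand. Gm27019 had 227 to 327 counts per library labelled knockout. It had 0 counts in each wild-type library. The neighbouring noncoding RNA Lncpint had 1831 to 2608 counts per library labelled knockout and 11 to 16 per wild-type library. With the scaling used here, KO4 stood apart from the other libraries over many genes. It was the highest of the 8 libraries for 4005 of the 14897 genes tested (26.9%), where the other libraries were highest for 7.44% to 14.2%. This share depended on the scaling. Scaled by total counts alone, KO4 was highest for 2111 of the genes tested (14.2%). Among marker lists, the summed level of 8 enterocyte markers was 39552 CPM in KO4 and 6509 to 18567 CPM in KO1 to KO3, against 9406 to 17667 CPM in WT1 to WT4. The summed level of 12 cell cycle genes was 569.8 CPM in KO4 and 918 to 1389.8 CPM in KO1 to KO3, against 1018 to 1424 CPM in the wild-type libraries. The 7 epithelial markers, Epcam and Vil1 among them, and the 7 crypt markers, Lgr5 and Olfm4 among them, had counts in every library.

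Promoter sequence was read for the genes whose levels are described below, to show the element that the complex with Stat2 and Irf9 is known to bind. RefSeq promoters on GRCm38.p6, from 250 bases before to 50 bases after each start site, were found for 29 of the 38 genes, as 33 promoters. The core of the interferon-stimulated response element was searched as GAAANNGAAA and, for the other strand, TTTCNNTTTC. It was present in 16 of the 33 promoters (48.5%), against 1131 of all 32851 promoters of the same length (3.44%). The gamma-activated site, TTCNNNGAA, which reads the same on both strands, was present in 8 of the 33 (24.2%) and in 2726 of all promoters (8.30%). These numbers count promoters, and matches may share bases, as those of Isg15 do. A match is a description of the letters and not of binding, and no match says only that these letters are not in the window.

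The windows shown are of the 6 genes with the highest mean level among the 13 with the first motif before the start site, each with up to 40 bases on either side and ending before the start site. In Ifih1, Ddx58 and Eif2ak2 the motif lay at or after the start site and is not shown. The window of Ifit3 was added because its excess in KO4 was the largest, and that of Irf1 because its excess was the smallest, both after their values were seen. Capitals mark the response element core, except in Irf1, where they mark the gamma-activated site.
Oas3 (chr5:120777685-120777774, minus strand): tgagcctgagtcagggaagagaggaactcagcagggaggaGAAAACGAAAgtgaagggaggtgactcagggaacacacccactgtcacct
Stat2 (chr10:128270248-128270325, plus strand): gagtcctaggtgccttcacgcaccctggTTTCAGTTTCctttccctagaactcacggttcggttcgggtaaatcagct
Oas1a (chr5:120907526-120907585, minus strand): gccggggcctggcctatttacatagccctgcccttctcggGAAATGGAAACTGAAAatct
Ifit1 (chr19:34640745-34640853, plus strand): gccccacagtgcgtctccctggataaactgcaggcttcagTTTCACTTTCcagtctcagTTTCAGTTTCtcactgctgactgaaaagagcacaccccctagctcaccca
Igtp (chr11:58199482-58199555, plus strand): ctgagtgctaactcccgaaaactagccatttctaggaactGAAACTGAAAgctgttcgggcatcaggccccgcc
Isg15 (chr4:156200835-156200936, minus strand): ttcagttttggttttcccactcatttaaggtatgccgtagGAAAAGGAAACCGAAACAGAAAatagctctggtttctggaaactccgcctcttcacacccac
Ifit3 (chr19:34583333-34583456, plus strand): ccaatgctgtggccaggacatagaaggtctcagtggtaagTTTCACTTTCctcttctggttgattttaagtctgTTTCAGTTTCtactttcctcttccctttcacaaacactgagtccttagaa
Irf1 (chr11:53769884-53769972, plus strand): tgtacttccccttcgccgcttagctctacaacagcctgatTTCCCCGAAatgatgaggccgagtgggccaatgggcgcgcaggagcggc
Isg15 held 3 matches within one run of letters, the first 78 bases before the start site. Ifit1 held 2 separate matches, 104 and 85 bases before it, and Ifit3 held 2, 156 and 122 bases before it. In Irf1 the gamma-activated site lay 90 bases before the start site, and neither of its 2 promoter entries held the response element core.

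By their mean over all 38 genes, levels were highest in 1 library of the group labelled knockout, KO4. KO1 and KO2 lay below the wild-type libraries and KO3 among them. The place of KO1 to KO3 held for the mean and not for every gene. The mean of log2 CPM (CPM, counts scaled to normalized library sizes; prior count of 2) over the 38 genes was 4.34, 4.29, 4.99 and 6.87 in KO1 to KO4, against 5.07, 5.002, 4.44 and 4.58 in WT1 to WT4. The means were 5.12 ± 1.21 in the libraries labelled knockout and 4.77 ± 0.312 in wild type (SD, n = 4 each). KO4 was the highest of the 8 libraries for all 38 genes, against 26.9% of all genes tested, and at least 2-fold above each of the other 7 libraries for 29 of the 38, against 2.4% of all genes tested. The level in KO4 over the highest of the other 7 libraries ran from 1.09-fold for Irf1 to 9.68-fold for Ifit3, with a median of 2.86-fold. Scaled by total counts alone, KO4 was the highest library for 35 of the 38 genes, against 14.2% of all genes tested. The genes for which it was not were Irf1, Iigp1 and Irgm1. That scaling places the median gene of KO4 0.324 below the median of the other 7 libraries on the log2 scale, against 0.032 below it with the scaling used here.

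None of the 38 genes differed between the groups by the test. The edgeR quasi-likelihood test gave an adjusted p of 0.994 for every one of them, where 3 of 14897 genes passed over the whole table (0.0201%). At an unadjusted p under 0.05 the edgeR count was again 0 of 38, against 2.7% of all genes tested. At that limit DESeq2 counted 2 of 38 (3.22% of all genes tested), both higher in the libraries labelled knockout. With edgeR it was 4 of 38 without KO1 (2.31% of all genes tested), 5 without KO2 (2.13%) and 1 without KO3 (8.62%), all higher in the libraries labelled knockout. DESeq2 called 0 of the 38 (0.148% of all genes tested) and limma-voom called 0 (0.0134%). For 8 of the 38 DESeq2 gave no p, so its counts cover only the others. The groups overlapped for all 38 genes, while they did not overlap for 1.53% of all genes tested. The log2 fold changes were above 0 for all 38 genes, with a median of 0.73, against 52.0% above 0 and a median of 0.011 over all genes tested. Their SEs ran from 0.15 to 1.02.

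Without KO4 the direction turned for most of the genes. The log2 fold change was below 0 for 33 of the 38 and above 0 for 5, namely Irf9, Trim25, Cmpk2, Mx2 and Xaf1, with a median of -0.20. Over all genes, 48.5% were above 0 in that comparison. None of the 38 was called by edgeR without KO4 (0.0132% of all genes tested), and at an unadjusted p under 0.05 the count was 2 of 38, against 3.31% of all genes tested. These were Ifit1 and Samd9l, both lower in the libraries labelled knockout. The 3 remaining knockout libraries did not overlap the wild-type libraries for 1 of the 38 genes, Samd9l, against 3.86% of all genes tested. KO1 or KO2 was the lowest of all 8 libraries for 23 of the 38 genes, against 15.1% of all genes tested.

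**Figure D1:**
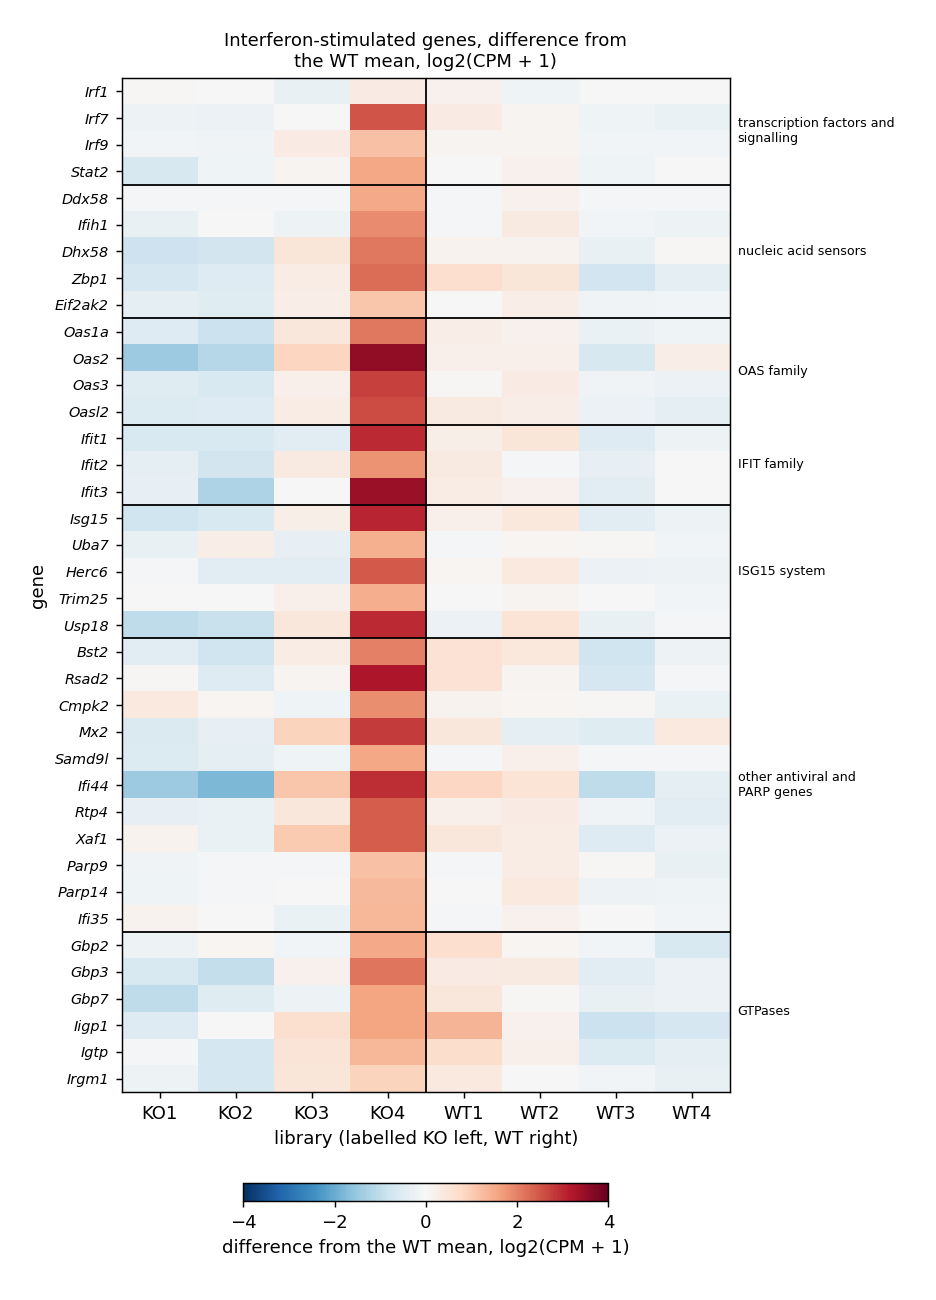
Level of the 38 genes (rows, by role) in each library (columns, labelled knockout left and wild type right), as the difference from the mean of the wild-type libraries in log2(CPM + 1). The KO4 column is the darkest in every row, Irf1 and Irgm1 show the palest cells of that column, and KO1 and KO2 lie mostly at or below the wild-type mean.

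**Figure D2:**
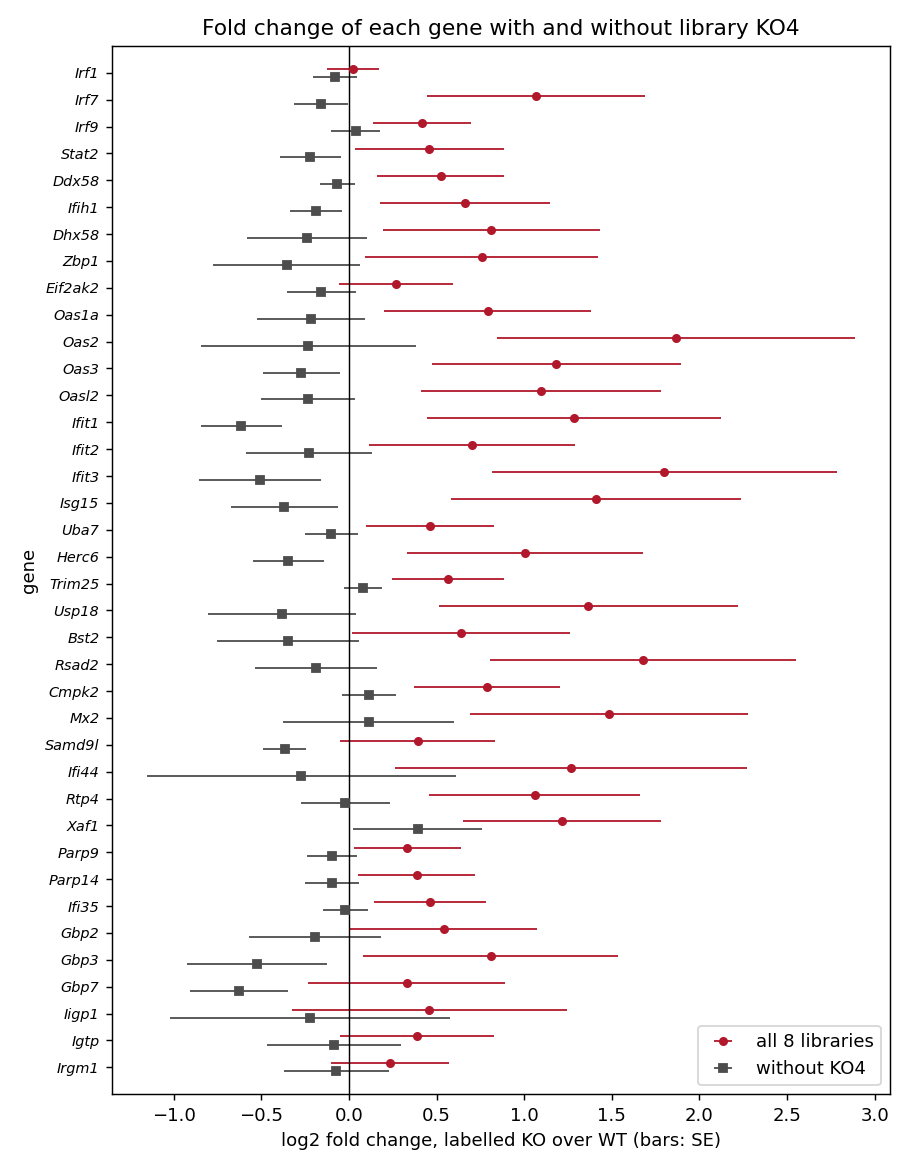
Log2 fold change of each gene, labelled knockout over wild type, with all 8 libraries (circles) and without KO4 (squares), with bars for the SE. All 38 circles lie above 0 and 33 of the 38 squares lie below it.

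Among the transcription factors, the level in KO4 stood furthest from the other libraries for Irf7 and least far for Irf1. Irf7 (ENSMUSG00000025498, chromosome 7, 141262706 to 141266481, minus strand), which amplifies interferon gene expression and is itself induced by interferon, had 94.5, 91.8, 108 and 626 CPM in KO1 to KO4, against 136, 116, 95.6 and 90.8 CPM in WT1 to WT4. Only KO4 was high, 4.59-fold above the next library, and the other 7 were within 90.8 to 136 CPM. Its log2 fold change was 1.07 (SE 0.62), and -0.16 (SE 0.15) without KO4. Stat2, a subunit of the complex formed after type I and type III interferon, had 45.05, 62.6, 76.3 and 210.0 CPM in KO1 to KO4, against 72.03, 81.2, 62.7 and 70.6 CPM in WT1 to WT4. KO4 was 2.59-fold above the highest of the others and KO1 was the lowest library. Irf1, a factor induced strongly by Ifng and present at rest, had 135, 131, 106 and 163 CPM in KO1 to KO4, against 149, 116, 129 and 131 CPM in WT1 to WT4. The 8 libraries overlapped in both directions and KO4 was 1.09-fold above WT1. Irf9, the DNA-binding subunit of the complex, reached 126 CPM in KO4 and 49.8 to 69.2 CPM in KO1 to KO3, against 50.5 to 60.03 CPM in WT1 to WT4. Its span shares 123 bases with Rnf31 on the same strand, and Irf7 shares 45 bases with Phrf1 on the opposite strand, so part of their counts may belong to the neighbour. The other log2 fold changes were 0.46 for Stat2, 0.42 for Irf9 and 0.025 for Irf1.

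The sensors of foreign nucleic acid were all highest in KO4, by 1.77-fold to 3.17-fold over the next library. Ifih1, the MDA5 receptor for long double-stranded RNA, had 65.4, 79.7, 69.1 and 301 CPM in KO1 to KO4, against 77.5, 103, 75.2 and 69.7 CPM in WT1 to WT4. Ddx58, the RIG-I receptor for viral RNA ends, had 61.4, 60.4, 61.6 and 186 CPM in KO1 to KO4, against 62.2, 72.5, 61.5 and 60.5 CPM in WT1 to WT4. For Ddx58 the 7 libraries other than KO4 lay within 60.4 to 72.5 CPM, the narrowest spread of the sensors, and KO4 was 2.56-fold above them. Eif2ak2, the kinase PKR that stops translation on double-stranded RNA, had 49.5, 44.6, 76.9 and 136 CPM in KO1 to KO4, against 63.3, 75.9, 56.8 and 58.9 CPM in WT1 to WT4. KO4 was 1.77-fold above KO3, and KO3 and WT2 were close to each other. Dhx58, the regulator LGP2 of the RNA sensors, had 75.2 CPM in KO4 and 8.89 to 23.7 CPM in KO1 to KO3, against 13.3 to 18.2 CPM in wild type. Zbp1, a sensor of Z-form nucleic acid that can start necroptosis, had 142 CPM in KO4 and 18.01 to 36.3 CPM in KO1 to KO3, against 16.7 to 47.5 CPM in wild type. The log2 fold changes were 0.66 for Ifih1, 0.52 for Ddx58, 0.27 for Eif2ak2, 0.81 for Dhx58 and 0.76 for Zbp1, and all 5 were below 0 without KO4.

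The oligoadenylate synthetases, which activate RNase L on double-stranded RNA, were each at least 3.23-fold higher in KO4 than in any other library. Oasl2, a family member with ubiquitin-like domains of its own, had 77.5, 80.1, 139.6 and 701 CPM in KO1 to KO4, against 148, 137, 96.4 and 86.03 CPM in WT1 to WT4. Oas3 (ENSMUSG00000032661, chromosome 5, 120753098 to 120777661, minus strand) had 44.5, 40.5, 71.2 and 417 CPM in KO1 to KO4, against 64.4, 78.8, 56.7 and 52.3 CPM in WT1 to WT4. KO4 was 4.75-fold above the next library in Oasl2 and 5.29-fold in Oas3. Oas1a had 35.6, 28.2, 70.1 and 226 CPM in KO1 to KO4, against 61.4, 58.6, 42.2 and 45.9 CPM in WT1 to WT4. Oas2 had 5.14, 6.76, 29.8 and 199 CPM in KO1 to KO4, against 18.6, 18.4, 9.77 and 19.2 CPM in WT1 to WT4. Oas2 had the largest log2 fold change of the 38 genes, 1.86 (SE 1.02), which was -0.23 (SE 0.61) without KO4, and its levels in KO1 and KO2 were below all 4 wild-type libraries while KO3 was above them. On chromosome 5, Oas2 and Oas3 lie 3244 bases apart, and Oas1a lies 118594 bases from Oas3. Oas1a has near-identical paralogs, Oas1g among them, so its counts are uncertain. The other log2 fold changes were 1.10 for Oasl2, 1.18 for Oas3 and 0.79 for Oas1a.

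The IFIT genes encode proteins that bind viral RNA and block its translation, and KO4 was the highest library for all 3. Ifit1 (ENSMUSG00000034459, chromosome 19, 34640871 to 34650009, plus strand) had 24.5, 24.4, 28.5 and 309 CPM in KO1 to KO4, against 44.8, 53.9, 26.2 and 33.3 CPM in WT1 to WT4. KO4 was 5.73-fold above WT2, and KO1 to KO3 were lower than WT1, WT2 and WT4. Ifit3 had 6.76, 3.19, 9.02 and 107 CPM in KO1 to KO4, against 11.1, 10.2, 6.14 and 8.74 CPM in WT1 to WT4. Ifit2 had 3.09, 2.21, 5.89 and 17.5 CPM in KO1 to KO4, against 5.88, 4.201, 3.27 and 4.24 CPM in WT1 to WT4. Ifit3 showed the largest excess of KO4 over the next library, 9.68-fold, while the excess of Ifit2, a neighbour 7111 bases away on the same strand, was 2.98-fold. The log2 fold changes of Ifit1 and Ifit3 were 1.29 (SE 0.84) and 1.80 (SE 0.98) with all libraries, and -0.61 (SE 0.23) and -0.51 (SE 0.35) without KO4. Ifit3 has a near-identical copy, Ifit3b, whose level in KO4 was 10.3 CPM, so the split of reads between them is uncertain. The log2 fold change of Ifit2 was 0.70 (SE 0.59).

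Isg15 is a ubiquitin-like protein that is attached to other proteins, Uba7 is its activating enzyme, Herc6 its ligase in the mouse, and Usp18 removes it and also dampens the type I receptor. Isg15 (ENSMUSG00000035692, chromosome 4, 156199455 to 156200796, minus strand) had 11.5, 13.1, 24.2 and 176 CPM in KO1 to KO4, against 23.5, 27.9, 15.03 and 17.9 CPM in WT1 to WT4. KO4 was 6.29-fold above WT2, and the log2 fold change was 1.41 (SE 0.83) with all libraries and -0.37 (SE 0.31) without KO4. Uba7 had 59.5, 86.9, 57.5 and 198 CPM in KO1 to KO4, against 70.9, 77.6, 75.4 and 67.9 CPM in WT1 to WT4. Its excess in KO4 was 2.28-fold, and the other 7 libraries were mixed in order. Trim25, a ubiquitin ligase that acts on RIG-I, had 189.7, 186, 218 and 515 CPM in KO1 to KO4, against 186, 200.4, 189 and 175 CPM in WT1 to WT4. Trim25 had the highest mean CPM of the 38 genes and stayed above 0 without KO4, at 0.080 (SE 0.11). Usp18 had 130.4 CPM in KO4 and 7.35 to 21.8 CPM in KO1 to KO3, against 12.7 to 23.6 CPM in wild type. Herc6 had 81.8 CPM in KO4 and 10.1 to 13.6 CPM in KO1 to KO3, against 11.8 to 18.6 CPM in wild type. The other log2 fold changes were 0.56 for Trim25, 0.46 for Uba7, 1.36 for Usp18 and 1.01 for Herc6.

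Of the other antiviral genes, Rsad2 was furthest out and the PARP genes were among the least. Parp14, an ADP-ribosyltransferase, had 139.7, 152, 154 and 386 CPM in KO1 to KO4, against 157, 204, 137 and 138 CPM in WT1 to WT4. Parp9, a family member that partners with Dtx3l, had 76.4, 81.8, 83.1 and 192 CPM in KO1 to KO4, against 82.1, 105, 87.95 and 68.5 CPM in WT1 to WT4. KO4 was 1.89-fold and 1.83-fold above the next library in these 2 genes, which was WT2 in both. Parp9 shares 682 bases with Dtx3l on the opposite strand, and no source used here gives the strand setting of the counting. Samd9l, an inhibitor of translation during infection, had 41.8, 47.03, 53.98 and 180.3 CPM in KO1 to KO4, against 58.6, 70.8, 57.9 and 58.9 CPM in WT1 to WT4. Leaving KO4 aside, all 3 knockout libraries of Samd9l were below all 4 wild-type libraries, and the log2 fold change was -0.37 (SE 0.12) in that comparison, which did not pass the test after adjustment by edgeR. Xaf1, which promotes apoptosis, had 16.5, 12.2, 31.8 and 83.2 CPM in KO1 to KO4, against 20.8, 18.3, 10.2 and 12.4 CPM in WT1 to WT4. It had the highest log2 fold change of the 38 without KO4, 0.39 (SE 0.37), and KO3 was its second highest library. Rsad2, or viperin, and Cmpk2, a nucleotide kinase beside it, lie 12751 bases apart on chromosome 12 on opposite strands. Rsad2 had 60.5 CPM in KO4 and 3.58 to 6.13 CPM in KO1 to KO3, against 3.16 to 8.88 CPM in wild type, an excess of 6.81-fold over the next library. Cmpk2 had 174 CPM in KO4 and 41.7 to 61.9 CPM in KO1 to KO3, against 38.9 to 51.9 CPM in wild type, an excess of 2.81-fold. Ifi44 varied most among the other libraries, with 3.601, 2.67, 26.6 and 96.6 CPM in KO1 to KO4, against 21.8, 17.7, 5.32 and 8.74 CPM in WT1 to WT4. For the rest, the excess of KO4 over the next library was 4.12-fold for Mx2, a dynamin-like antiviral GTPase, 3.94-fold for Rtp4, 2.74-fold for Bst2, or tetherin, which holds budding virus at the membrane, and 2.28-fold for Ifi35. The log2 fold changes with all libraries were 1.68 for Rsad2, 1.48 for Mx2, 1.27 for Ifi44, 1.06 for Rtp4, 1.22 for Xaf1 and 0.79 for Cmpk2. For the remaining genes they were 0.64 for Bst2, 0.39 for Samd9l, 0.46 for Ifi35, 0.39 for Parp14 and 0.33 for Parp9.

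The guanylate-binding proteins and immunity-related GTPases, which attack vacuoles that hold microbes, were the group in which KO4 stood out least. Igtp had 38.7, 24.00, 56.9 and 103 CPM in KO1 to KO4, against 66.03, 45.6, 27.02 and 30.9 CPM in WT1 to WT4. KO4 was 1.55-fold above WT1, and KO3 and WT1 were both well above KO2 and WT3. Irgm1, a regulator of the other GTPases, had 13.7, 9.37, 22.9 and 30.1 CPM in KO1 to KO4, against 21.01, 16.2, 14.6 and 12.7 CPM in WT1 to WT4. Gbp7 had 4.41, 6.83, 8.49 and 31.8 CPM in KO1 to KO4, against 14.1, 10.4, 7.95 and 8.41 CPM in WT1 to WT4. Gbp7 had the lowest log2 fold change of the 38 genes without KO4, -0.63 (SE 0.28), against 0.33 (SE 0.56) with all libraries. Iigp1, at low counts, was nearly as high in WT1 as in KO4, with 8.301 CPM in KO4 and 1.18 to 3.83 CPM in KO1 to KO3, against 6.98 CPM in WT1 and 0.702 to 2.51 CPM in WT2 to WT4. Gbp2 reached 11.2 CPM and Gbp3 24.4 CPM in KO4, against at most 5.697 and 6.395 CPM in wild type. Igtp shares 7974 bases of its span with Irgm2 on the same strand, so reads there cannot be assigned with certainty. The other log2 fold changes were 0.81 for Gbp3, 0.54 for Gbp2, 0.46 for Iigp1, 0.39 for Igtp and 0.23 for Irgm1.

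The roles can be set side by side by the median excess of KO4 over the highest of the other libraries. It was 5.73-fold for the 3 IFIT genes, 5.02-fold for the 4 OAS genes, 4.39-fold for the 5 genes of the ISG15 system and 2.92-fold for the 5 sensors. It was 2.74-fold for the 11 other antiviral and PARP genes, 2.203-fold for the 4 transcription factors and 1.76-fold for the 6 GTPases. These medians describe 1 library and the differences between roles were not tested. By length-normalized level, the median FPKM over the 8 libraries was highest for Irf1 and Trim25, at 32.6 and 32.6, followed by Ifi35 at 31.2 and Isg15 at 29.1. It was lowest for Iigp1, at 0.391.

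**Figure D3:**
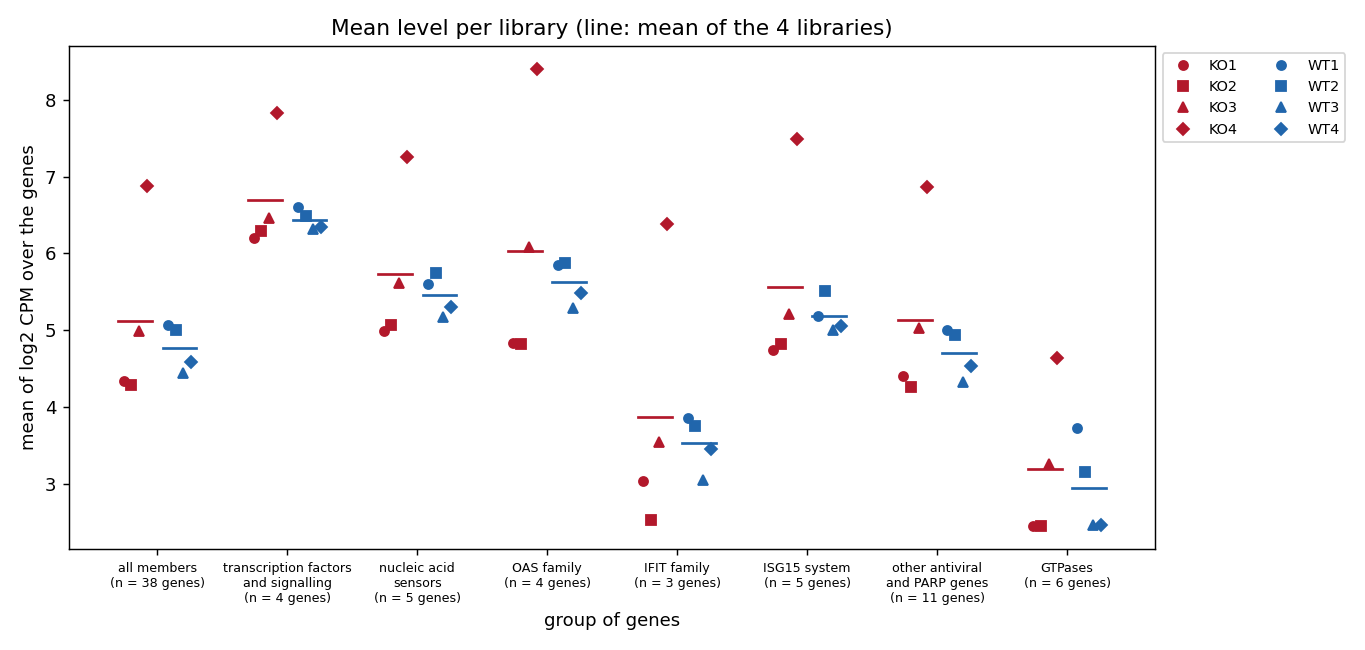
Mean of log2 CPM over the genes of each role in every library, with labelled knockout libraries in red left of wild-type libraries in blue, and a line at the mean of 4 libraries. KO4 (red diamond) is the highest library in each role, by the least in the GTPases, where WT1 lies next.

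Of the interferons themselves, 16 of 21 genes, Ifnb1 and Ifnl2 among them, had 0 counts in every library, which allows up to 3 counts over the 8 libraries. Ifng had 0, 5, 1 and 6 counts in KO1 to KO4, against 4, 2, 2 and 0 counts in WT1 to WT4. Ifnl3 had 3 counts, all in KO2. No ligand gene passed the filter, so at this depth a difference in the ligands was not detectable. By their summed level the receptors and their kinases were also highest in KO4. The sum of these 9 genes was 1187 CPM in KO4 and 697 to 825 CPM in KO1 to KO3. In wild type it was 679 to 834 CPM. KO4 was the highest library for 8 of the 9, not for Ifnar2, against 26.9% of all genes tested. None of the 9 was called by edgeR. The log2 fold change was above 0 for 9 of 9 with all libraries (median 0.17) and for 5 of 9 without KO4 (median 0.0084). The genes named are the 2 with the smallest p. Ifngr1, a chain of the Ifng receptor, had 132, 145, 128 and 156 CPM in KO1 to KO4, against 134, 114, 131 and 119 CPM in WT1 to WT4. The log2 fold change stood at 0.17 (SE 0.11) for Ifngr1 and 0.15 (SE 0.11) for Tyk2. KO4 was 1.07-fold above the next library for Ifngr1 and 1.08-fold for Tyk2. Among the adaptors that relay sensing, 0 of 10 tested were called (median 0.0063), and the 2 with the smallest p were Myd88, at 0.19 (SE 0.12), and Ticam1, at 0.27 (SE 0.21). The adaptors summed to 731 CPM in KO4 and 561 to 643 CPM in KO1 to KO3, against 579.7 to 620.2 CPM in wild type. Among negative regulators, 0 of 8 tested were called (median -0.011), with Samhd1, a nucleotide hydrolase, at 0.41 (SE 0.22) and Ptpn2, a phosphatase of the JAK kinases, at -0.22 (SE 0.14). Negative regulators summed to 659.7 CPM in KO4 and 411 to 443 CPM in KO1 to KO3, against 427 to 459 CPM in wild type, and 4 of 8 had a log2 fold change above 0 with all libraries and 1 of 8 without KO4.

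A second list of 47 interferon-stimulated genes, not among the 38, was also highest in KO4 by its summed level. Of its 43 tested genes 0 were called, 40 had a log2 fold change above 0 (median 0.39), and without KO4 13 of 45 did (median -0.073). KO4 was the highest library for 37 of the 47, against 26.9% of all genes tested. Ddx60, a helicase of the RNA sensing pathway, had 59.7, 49.04, 60.8 and 470.0 CPM in KO1 to KO4, against 84.1, 67.5, 40.5 and 46.3 CPM in WT1 to WT4. Trim21, an antibody receptor in the cytosol, had 15.7, 14.6, 17.7 and 22.4 CPM in KO1 to KO4, against 16.2, 14.04, 11.6 and 12.6 CPM in WT1 to WT4. Ddx60 was 5.59-fold above the next library in KO4 and Trim21 1.26-fold. For MHC class I, the summed level of 11 genes was 8973 CPM in KO4 and 2773 to 3717 CPM in KO1 to KO3, against 2727 to 4257 CPM in wild type. None of these 11 was called (median 0.42), with the peptide transporter genes Tap2 at 0.42 (SE 0.23) and Tap1 at 0.59 (SE 0.36). For MHC class II, 7 genes summed to 4010.3 CPM in KO4 and 869 to 1965 CPM in KO1 to KO3, against 1056 to 2722 CPM in wild type, and 0 of 7 were called, with H2-Aa at 0.59 (SE 0.68) and Cd74, the invariant chain, at 0.30 (SE 0.37).

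Immune cells that could carry interferon-stimulated transcripts were read from their markers, and in bulk RNA fewer cells of a type cannot be told apart from less RNA per cell. The 11 T cell markers summed to 224 CPM in KO4 and 97.96 to 119.9 CPM in KO1 to KO3, against 123 to 354 CPM in wild type, and none was at 0 in any library. KO4 was thus below WT1 and above all the other libraries, with WT2 to WT4 at 123 to 176 CPM. It was the highest library for 4 of the 11 markers, against 26.9% of all genes tested. Trdc, a T cell receptor delta gene, was at -1.05 (SE 0.27) on the log2 fold change scale and the cytotoxic granule gene Gzma at -0.88 (SE 0.37). The 10 myeloid markers summed to 18.2 CPM in KO4 and 18.01 to 18.5 CPM in KO1 to KO3, against 16.1 to 29.6 CPM in wild type, with none at 0, Fcer1g at -0.57 (SE 0.26) and Csf1r at -0.93 (SE 0.42). KO4 was within the range of the other libraries for the myeloid list. Of the 5 NK cell markers 1 was at 0 in KO4, the defining gene Ncr1, and the sums were 15.3 CPM in KO4 and 7.79 to 10.1 CPM in KO1 to KO3, against 8.14 to 16.7 CPM in wild type, with Klrd1 at -0.78 (SE 0.28) and Nkg7 at -0.10 (SE 0.37). Siglech, the defining gene of plasmacytoid dendritic cells, was near 0, at 0.705 CPM in KO4 and 0.195 to 0.471 CPM in KO1 to KO3, against 0.313 to 2.11 CPM in wild type. The list of 4 markers of those cells summed to 73.8 CPM in KO4 and 88.1 to 106 CPM in KO1 to KO3, against 71.5 to 145 CPM in wild type, most of it from Klk1, which was at -0.19 (SE 0.25), with Ccr9 at 0.45 (SE 0.45). The 6 B and plasma cell markers summed to 11.1 CPM in KO4 and 7.602 to 31.8 CPM in KO1 to KO3, against 7.902 to 70.7 CPM in wild type, with Jchain at -1.51 (SE 0.53) and Cd79b at -0.87 (SE 0.64).

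Some of the lists outside the immune lists also stood apart in KO4. Its stromal and endothelial sum lay within the range of the other libraries, and its crypt sum lay near those of WT2 and WT3. The 5 red blood cell markers summed to 55.1 CPM in KO4 and 8.898 to 14.3 CPM in KO1 to KO3, against 2.69 to 15.03 CPM in wild type, with Hba-a2 at 1.77 (SE 0.74) and Hbb-bt at 1.63 (SE 0.82). The 7 genes that respond to fasting and PPAR factors summed to 872 CPM in KO4 and 306 to 422 CPM in KO1 to KO3, against 260.3 to 364 CPM in wild type, with Pdk4, a kinase that inhibits pyruvate dehydrogenase, at 3.06 (SE 0.69) and Angptl4, a lipase inhibitor, at 2.38 (SE 0.74). Among enterocyte markers, Apoa1 was at 0.82 (SE 0.56) and Treh at 0.48 (SE 0.43), and among cell cycle genes Mcm7 was at -0.34 (SE 0.18) and Mcm3 at -0.36 (SE 0.21). The crypt markers summed to 7122 CPM in KO4 and 17924 to 18577 CPM in KO1 to KO3, against 7665 to 13567 CPM in wild type, most of it from the Paneth cell gene Lyz1, which was at 0.89 (SE 0.40), with Mki67 at -0.40 (SE 0.26). The epithelial markers summed to 18651 CPM in KO4 and 8379 to 11832 CPM in KO1 to KO3. The wild-type sums were 8978 to 12745 CPM. KO4 was the highest library for 5 of the 7, against 26.9% of all genes tested. The log2 fold change was above 0 for 4 of the 7 (median 0.025), and for 0 without KO4 (median -0.15). The 2 genes with the smallest p both lay below 0, Krt18 at -0.26 (SE 0.22) and Krt19 at -0.19 (SE 0.18). Stromal and endothelial markers, 7 in number, summed to 5.72 CPM in KO4 and 2.87 to 11.7 CPM in KO1 to KO3, against 1.48 to 19.8 CPM in wild type, with Pecam1 at -0.18 (SE 0.30) and Col3a1 at -0.21 (SE 1.02). No gene of these lists or of the immune cell lists was called by edgeR, and the part of each in the level of the 38 genes was not tested.

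**Figure D4:**
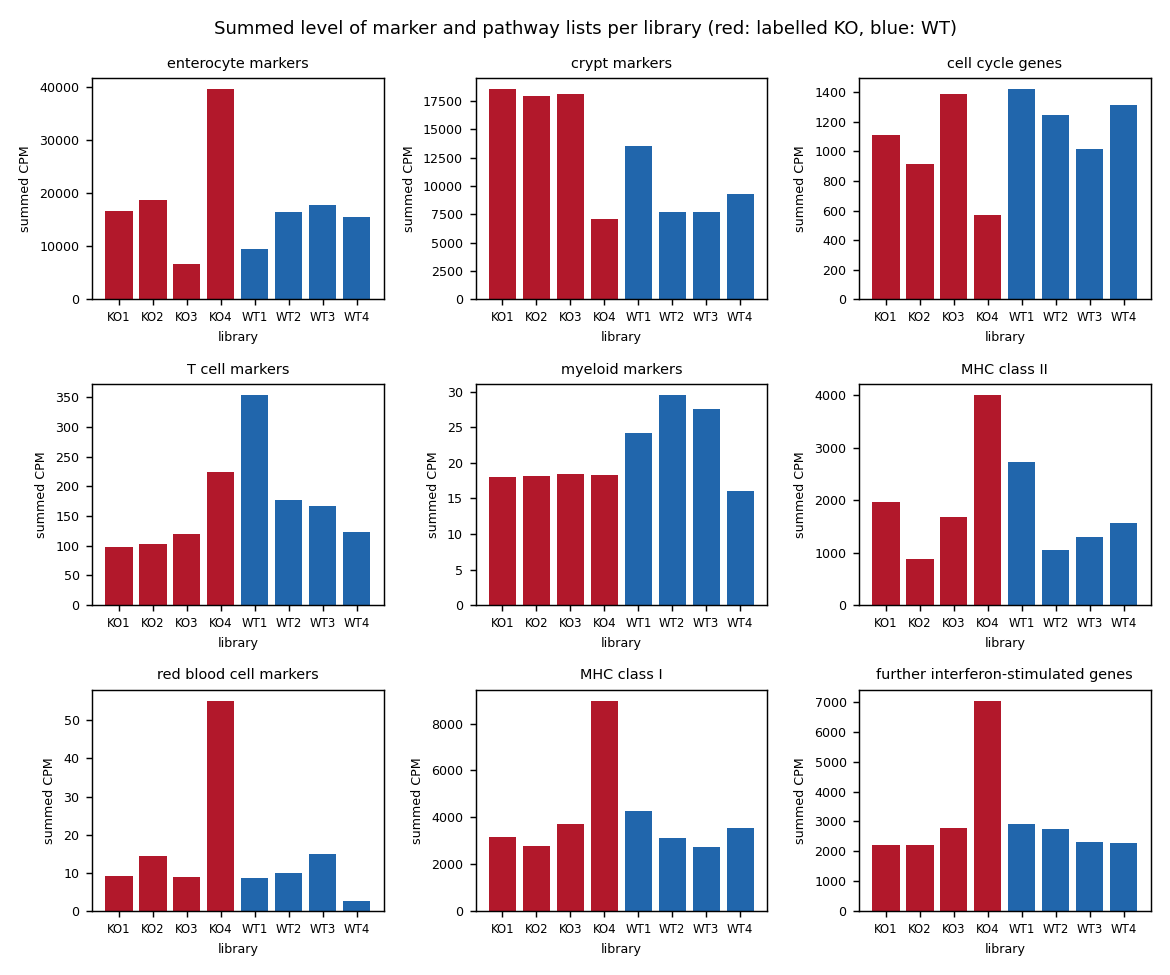
Summed CPM of 9 marker and pathway lists in each library, labelled knockout in red left of wild type in blue, each panel with its own axis from 0. KO4 is the highest library for enterocyte, red blood cell, MHC and further interferon-stimulated genes and the lowest for cell cycle genes. For T cell markers it is below WT1 and above the other libraries.

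In the authors' deposited table, the log2 fold changes of the 38 genes ran from 0.029 for Irf1 to 1.88 for Oas2. An adjusted p under 0.05 was held by 0 of the 38 in the authors' deposited table (0.0789% of the genes with a p there), and 1 of the 38, Xaf1, had an unadjusted p under 0.05 (2.52% of those genes). The authors' deposited table gives no p for 8 of the 38, namely Irf7, Oas3, Oasl2, Ifit1, Ifit3, Isg15, Herc6 and Rsad2, and the DESeq2 fit run here withheld the p of the same 8, as it does where 1 library holds an extreme count.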

How the data were processed

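RNA of small intestinal crypts from 4 libraries labelled knockout and 4 labelled WT was extracted with TRIzol and made into strand-marking libraries, as the labels' protocols state. The submitters' processing notes name HISAT2 and DESeq2 without versions, and no source used here gives the counting tool, its strand setting or the build. Coordinates matched GENCODE M21 on GRCm38 for 99.5% of 55144 shared identifiers and for 37 of the 38 genes. The deposited table holds whole-number counts per gene, per the file headers, beside FPKM values the authors scaled by gene length and a factor per library. The authors' log2 fold changes and p-values are quoted from the deposited table only where named. The authors' group means, a normalized signal in the deposited table, were not used, nor was a deposited table of 670 selected genes.

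The main test was edgeR's quasi-likelihood test (version 4.0.16, R 4.3.3; robust, TMM scaling, filterByExpr) on all genes passing the filter, Benjamini-Hochberg adjusted, at 0.05. The SE is the absolute log2 fold change over the square root of F. CPM use TMM library sizes. Tests were checked on simulated data. Alternatives were RLE factors, DESeq2 1.42.0, limma-voom (limma 3.58.1), 2 other filters, a replicate block and leaving out each library; scaling by total counts was added after seeing the data. The 38 members, the other lists and the alternatives were chosen with earlier results of these data known. Log2 fold changes are given for all members, and levels per library for the 3 members of each role with the highest mean CPM and for those with the largest and smallest fold change with and without KO4; of each other list, the 2 with the smallest p are named. Levels of other members are given by range; Ifi44, given in full, was chosen after its values were seen. Depth limits low genes such as Iigp1, with 12 to 114 counts, and floors cover counting error only. The list of receptors and signalling genes is given for its receptors and kinases; its remaining gene is not reported here. Same-group libraries differed by more than sampling noise (lowest chi-square over degrees of freedom 32.4).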

Additional observations from a re-analysis of the deposited data

Results flagged for a closer look

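Of 116 groups of 4 libraries examined, 30 held a library whose distance to the nearest other exceeded 0.829 of the range of its group (Dixon's criterion for 4 values), where chance flags about 1 in 20. KO4 was such a library, on the high side, for 23 of the 38 genes. The share of all genes tested that this rule flags in KO4 is not given here. By 2 other measures, KO4 was the highest library for 26.9% of all genes tested and for all 38 genes. It was at least 2-fold above the other 7 libraries for 2.4% of all genes tested and for 29 of the 38. These measures are unlike the rule used here, so the flagged count has no background share to be set against. In CPM the flagged genes were Irf7 at 626, Ddx58 at 186, Ifih1 at 301, Zbp1 at 142, Oas2 at 199, Oas3 at 417, Oasl2 at 701 and Ifit1 at 309. Further values in KO4 were Ifit3 at 107, Isg15 at 176, Herc6 at 81.8, Trim25 at 515, Usp18 at 130.4, Rsad2 at 60.5, Cmpk2 at 174 and Samd9l at 180.3. The last were Rtp4 at 119, Parp9 at 192, Parp14 at 386, Ifi35 at 137, Gbp2 at 11.2, Gbp3 at 24.4 and Gbp7 at 31.8. By role, KO4 was flagged for the mean log2 CPM of the transcription factors, at 7.83, and of the ISG15 system, at 7.496. Outside the interferon genes it was flagged for the summed level of red blood cell markers, at 55.1 CPM on the high side, and of crypt markers, at 7122 CPM on the low side. In the wild-type group, WT2 was flagged for Ddx58, at 72.5 CPM, and for Samd9l, at 70.8 CPM, both on the high side. WT3 was flagged for Oas2, at 9.77 CPM on the low side. The genes of this list share their libraries, so these flags are not independent of each other.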

How the results depend on the processing

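None of the 38 genes that had an adjusted p was called under any alternative, with values from 0.576 to 1. DESeq2 gave no p for 8 of the 38, and the filter at 5 CPM left out 3, namely Ifit2, Gbp2 and Iigp1. The number of genes called over the whole table was 3, and 22 with DESeq2, 5 with no filter on low counts and 2 to 3 when single libraries were left out. The median log2 fold change of the 38 was 0.73, and -0.20 to 0.98 when single libraries were left out, the lowest without KO4. The number of the 38 above 0 was 38, and 5 to 38 when single libraries were left out, again lowest without KO4. That median was 0.32 with limma-voom, 0.30 with the replicate block and 0.55 with scaling by total counts, which was chosen after seeing the data. Under limma-voom and the replicate block Gbp7 turned to -0.097 and -0.074, and with total counts Irf1 turned to -0.083; the cause was not tested. The labels do not say that the replicate numbers pair the libraries. Same-numbered libraries had correlations of -0.39 to 0.075 in their deviations from the group means. With so few libraries these correlations cannot settle whether a pairing exists. The block changed no call. Left-out libraries turned the sign of the log2 fold change of 33 genes, all without KO4 and Irf1 also without WT2. The ranges were Irf1 -0.081 to 0.12, Irf7 -0.16 to 1.32, Stat2 -0.22 to 0.70, Ddx58 -0.068 to 0.67, Ifih1 -0.19 to 0.88, Dhx58 -0.24 to 1.11 and Zbp1 -0.36 to 1.04. Next came Eif2ak2 -0.16 to 0.45, Oas1a -0.22 to 1.08, Oas2 -0.23 to 2.25, Oas3 -0.27 to 1.48, Oasl2 -0.23 to 1.39, Ifit1 -0.61 to 1.60 and Ifit2 -0.23 to 0.99. Others were Ifit3 -0.51 to 2.17, Isg15 -0.37 to 1.75, Uba7 -0.10 to 0.65, Herc6 -0.35 to 1.29, Usp18 -0.38 to 1.71, Bst2 -0.35 to 0.92 and Rsad2 -0.19 to 2.01. Further ranges were Samd9l -0.37 to 0.61, Ifi44 -0.27 to 1.65, Rtp4 -0.020 to 1.33, Parp9 -0.095 to 0.47, Parp14 -0.096 to 0.54, Ifi35 -0.020 to 0.64 and Gbp2 -0.19 to 0.89. The remaining ranges were Gbp3 -0.52 to 1.13, Gbp7 -0.63 to 0.61, Iigp1 -0.22 to 1.46, Igtp -0.084 to 0.68 and Irgm1 -0.071 to 0.46.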
